A study of Mus musculus with 5 samples.

Results

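The TNF receptor and ligand genes described here are 10 mouse genes, the receptor genes Tnfrsf1a, Tnfrsf1b, Tnfrsf10b, Tnfrsf11b, Tnfrsf12a and Fas and the ligand genes Tnf, Tnfsf10, Tnfsf11 and Tnfsf12. They were chosen by name, with earlier results of these data known, and are 10 of 21951 protein-coding genes of the GENCODE M21 annotation. Every peak within 50 kb of any of their transcription start sites (TSSs) was collected from 5 peak lists of mouse muscle stem cells (MuSCs), the resident stem cells that repair skeletal muscle. A peak is called promoter when its nearest edge lies within 3 kb of a TSS and distal beyond that. Distances are from the nearest peak edge to the nearest TSS of any transcript of the gene, negative upstream and positive downstream in the direction of the gene.

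TNF superfamily ligands are mostly trimeric membrane proteins, some of which are shed as cytokines, and they bind cysteine-rich receptors on the same or on neighbouring cells. Receptors with a death domain, such as Fas, can start apoptosis, while most family members recruit TRAF adaptors that lead to NF-κB and AP-1 kinase signalling. In muscle, TNF-α is a classical inflammatory and wasting cytokine, and the TWEAK receptor Fn14 is induced in injured or denervated tissue. JunB is a subunit of the dimeric AP-1 transcription factor, whose usual DNA site is TGAGTCA. H3K27ac is an acetylation of histone H3 that marks active promoters and enhancers.

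JunB was mapped with CUT&RUN-seq, in which a nuclease tethered to an antibody cuts out the DNA around the bound protein in permeabilised cells. There were 3 JunB libraries labelled Young (Young 1, Young 2 and Young 3), 1 JunB library labelled Aged and 1 H3K27ac library whose donor age the labels do not give, all from freshly isolated MuSCs. No treatment separates these groups by their titles, and nothing in the labels states how many mice went into a library or their age in months. By the study's methods, MuSCs of young and aged mice were sorted as negative for blood, endothelial and SCA1 markers and positive for VCAM. The methods also give a GFP gate for MuSCs of control and JunB knockout mice. They do not state the gate library by library. No test between ages was made, since 1 aged library against 3 young ones allows an exact permutation p no smaller than 0.25, and the results are a description of these libraries. The 3 Young libraries give the only replicate spread, and whether they came from separate mice is not stated.

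The labels carry conflicts that bear on every young and aged value. The design text of the series speaks of DMSO- and MVC-treated mice, whereas the sample titles say Young and Aged. The part of the study's supplementary peak sheet used here lists peaks of the Aged-labelled library under a young heading and peaks of Young-labelled libraries under an aged heading, and the peak names inside the Young 1 list contain the text gfp. The study's methods also tie the H3K27ac data to an outside epigenome mapping project. On the other side, the study's text gives its aged mice as many JunB libraries and peaks as carry the Aged label here. The titles were kept, so young and aged mean the libraries so labelled. The JunB lists of Young 1, 2 and 3 held 9534, 4884 and 3863 peaks, the aged list 14123 and the H3K27ac list 39865. The lists did not share a threshold, since the lowest −log10 p was 3.01 in both Young 1 and the aged library but 5.33 in Young 2 and 5.22 in Young 3. No read counts accompany the peaks, and their depth is unknown. For the tissue label, 6 of 10 muscle stem cell markers had an H3K27ac peak at the promoter, near the 49.8% of all genes (Myod1, Vcam1, Itga7, Cdh15, Chodl and Sdc4), while Pax7, Myf5, Calcr and Cxcr4 had none. The same was true of 1 of 4 blood, 2 of 4 endothelial, 1 of 4 fibro-adipogenic progenitor and 1 of 4 myofibre markers. Of the blood list, Csf1r had such a peak, whereas Ptprc (the gene of CD45), Cd68 and Itgam had none. Tek and Pecam1 of the endothelial list had one as well. Promoter H3K27ac thus did not set the stem cell markers clearly apart from other genes, and the part of other cells in the peaks below was not tested.

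JunB peaks lay within 50 kb of 8 of the 10 genes, and Tnfrsf11b and Tnfsf11 had none in any library. Among all protein-coding genes, 35.4% likewise had no JunB peak in that window. A promoter peak was present at 3 of the 10 genes in Young 1 (background 11.1% of all genes), at 1 in Young 2 (background 7.79%) and at 1 in Young 3 (background 5.95%). In the aged library 6 of the 10 genes had one (background 23.9%), namely Tnfrsf1a, Tnfrsf1b, Tnfrsf12a, Fas, Tnf and Tnfsf10. The young mean was 1.67 ± 1.15 genes (SD, n = 3), and the aged count of 6 lay above all 3 young counts. The aged list is also the longest of the JunB lists. When each list was limited to its 2000 strongest peaks, the promoter count was 1 in the aged library and 0 in the young ones together. The share of all genes under that limit was not taken, so these counts have no background.

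At Fas, Tnf and Tnfrsf1a the aged library alone had a promoter peak, which held for 13.1% of all genes. The reverse, a young promoter peak with no aged one, was seen at 0 of the 10 genes and at 1.95% of all genes. Only Tnfrsf12a had a promoter peak in all 4 JunB libraries, a property of 4.40% of all genes. The young promoter peaks came largely from 1 library: without Young 1, the number of genes with a young promoter peak went from 3 to 1, leaving Tnfrsf12a. A young promoter peak in any library was present at 12.8% of all genes. Of the receptor genes, 4 of 6 had an aged promoter peak and 2 of 6 a young one. Of the ligand genes, the counts were 2 of 4 and 1 of 4.

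Widening the view to 50 kb, JunB peaks were found near 8 of the 10 genes in Young 1 (background 40.4%), 4 in Young 2 (background 27.6%), 4 in Young 3 (background 23.5%) and 7 in the aged library (background 58.5%). The young mean was 5.33 ± 2.31 genes (SD, n = 3), and the aged count lay within the young range. By number of peaks, the windows held 14 in Young 1, 5 in Young 2, 6 in Young 3 and 22 in the aged library. As a share of each list these were 0.147%, 0.102%, 0.155% and 0.156% respectively, so the aged share was about that of Young 1 and Young 3. For H3K27ac, 6 of the 10 genes had a promoter peak (background 49.8%) and 9 had a peak within 50 kb (background 76.6%). In every library the share of the 10 genes was above that of all genes at both distances. The genes were chosen with earlier results of these data known, so these differences are a description and no evidence of an excess. In Young 2 and in Young 3 the promoter share rested on 1 gene. With 10 genes the shares move in large steps, and no test was made.

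**Figure D1:**
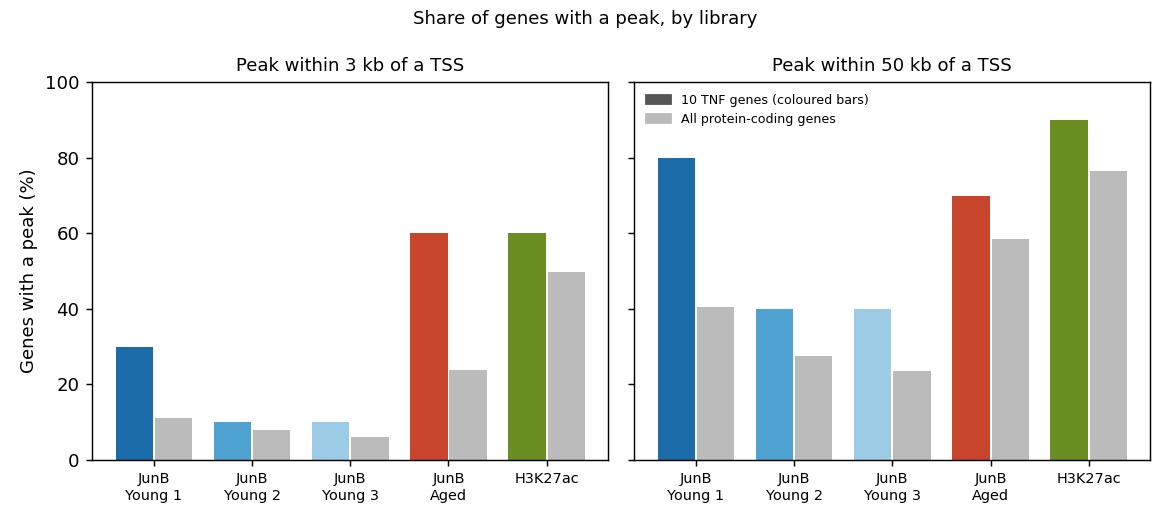
The share of the 10 TNF receptor and ligand genes (coloured bars) and of all 21951 protein-coding genes (grey bars) with a peak within 3 kb (left) or 50 kb (right) of a TSS, in percent, for each of the 5 libraries. At promoters the aged JunB library has the highest share among the JunB libraries for both sets (6 of 10 genes against 23.9% of all genes), while within 50 kb Young 1 has the highest share of the 10 genes (8 of 10).

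JunB peaks of the 4 libraries that overlapped or touched were merged into regions, of which 27 lay in the windows of the 10 genes and 18879 on chromosomes 1 to 19, X and Y in all. Of the 27, 7 were promoter and 20 distal. In all, 4 regions were present in all 4 libraries (14.8%, against 13.1% of all regions), and 12 were present in the aged library alone (44.4%, against 45.0%). Both shares were close to the background. Of the other regions, 4 were in Young 1 alone and 0 in Young 2 or Young 3 alone, counts for which the share of all regions was not taken. The 22 aged peaks included 10 that overlapped a young peak (45.5%, background 39.6%). From the young side, 9 of 14 peaks of Young 1 overlapped an aged peak (background 53.8%), 5 of 5 of Young 2 did (background 76.8%) and 5 of 6 of Young 3 did (background 78.8%).

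H3K27ac overlapped 15 of the 27 regions (55.6%, background 42.6% of all JunB regions), 5 of the 7 promoter regions and 10 of the 20 distal ones. That background pools promoter and distal regions, and separate shares were not taken. In 14 of these 15 regions every JunB summit lay inside the H3K27ac peak. The share among all JunB regions that overlap H3K27ac was not taken. H3K27ac peaks were wide, with a median of 730 bp against 317 to 337 bp in the JunB lists. Regions found in at least 2 JunB libraries carried H3K27ac in 8 of 11 cases (background 62.4%) and those found in 1 library in 7 of 16 (background 32.3%), so the shared regions had the mark more often among all JunB regions too. Seen from the mark, 14 of the 45 H3K27ac peaks in the windows overlapped a JunB peak (31.1%, background 20.1% of all H3K27ac peaks). Because 12 of the 27 regions lay nearer to the TSS of another coding gene than to that of the TNF gene, the distal regions of crowded loci are described with that neighbour. For 10 of those 12 the neighbour's own TSS was within 3 kb. Shares of all regions were not taken for these counts of neighbours.

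**Figure D2:**
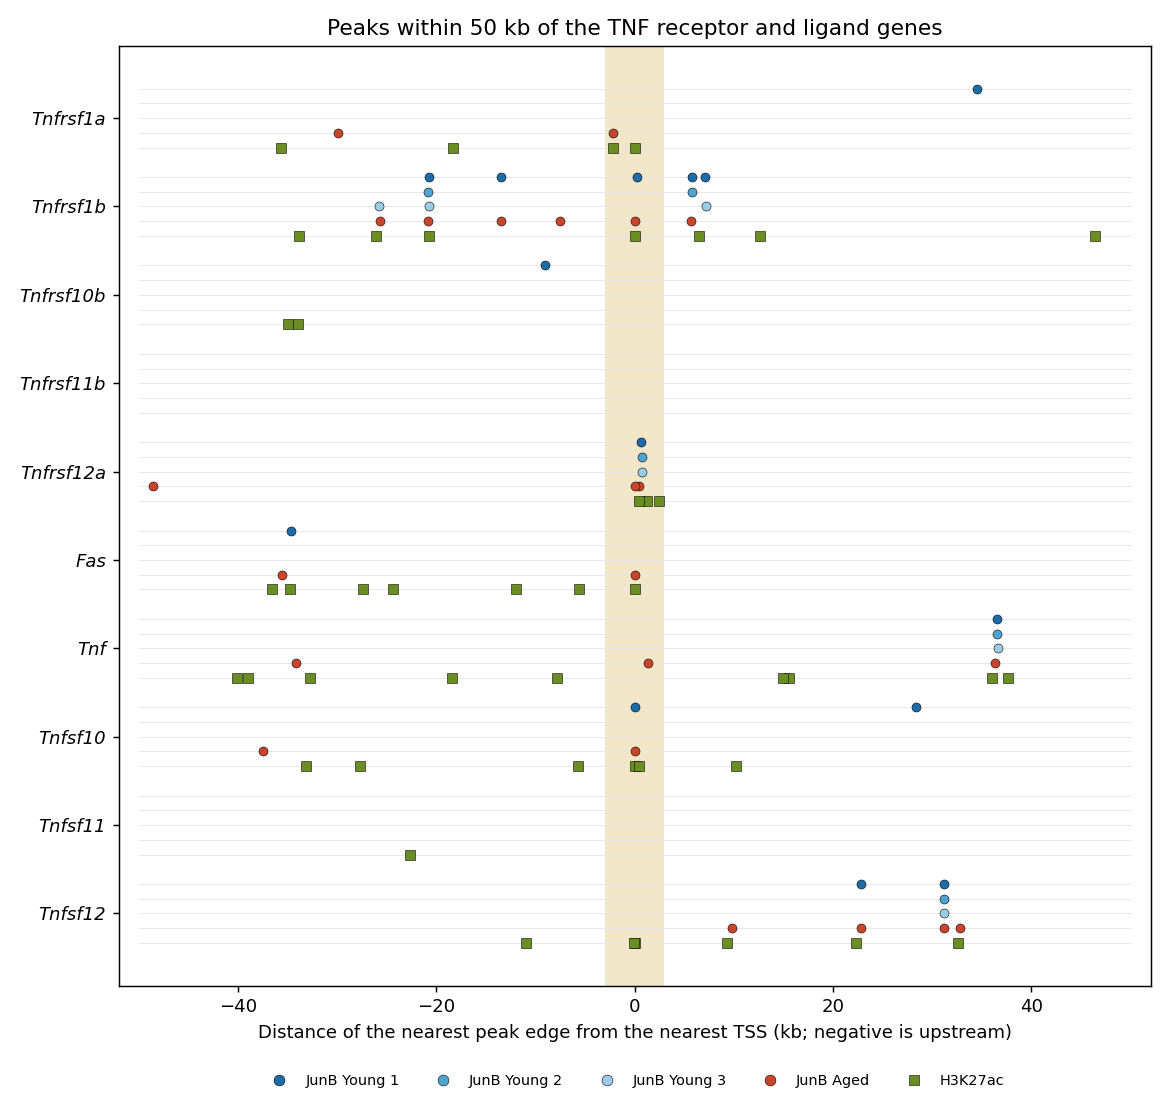
Each point is 1 peak within 50 kb of a TNF receptor or ligand gene, placed by the signed distance of its nearest edge from the nearest TSS (kb, negative upstream), with 1 lane per library and the shaded band marking the 3 kb promoter window. Tnfrsf1b has the most JunB regions (7), Tnfrsf12a is the 1 gene with promoter peaks in all 4 JunB lanes, and Tnfrsf11b has no peak of any kind.

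The sequences below are shown because they lie under the JunB summits that the results turn on, read from the plus strand of GRCm38.p6 (mm10) for the library with the strongest peak. Each line is centred on that summit, and is cut to 29 bases where the sequence lies in an untranslated region, and capitals mark a match to TGAGTCA or its reverse complement TGACTCA. The promoter sequences of Tnfrsf1b, Tnfsf10 and Fas come first, at chr4:145246388-145246488, chr3:27316831-27316931 and chr19:34290771-34290871. The 3 promoter sequences were added after the values had been seen.
Tnfrsf1b promoter: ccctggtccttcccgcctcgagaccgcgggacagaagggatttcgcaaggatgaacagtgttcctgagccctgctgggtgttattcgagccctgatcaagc
Tnfsf10 promoter: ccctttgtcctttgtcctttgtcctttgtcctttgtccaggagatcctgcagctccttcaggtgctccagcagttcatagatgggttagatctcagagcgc
Fas promoter: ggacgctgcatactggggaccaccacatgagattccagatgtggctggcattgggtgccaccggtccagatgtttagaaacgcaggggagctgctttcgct

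The 4 regions found in every JunB library lie at chr4:145267829-145267857 upstream of Tnfrsf1b, chr17:23675609-23675637 in Tnfrsf12a, chr17:35165191-35165291 in the Tnf window and chr11:69664055-69664155 in the Tnfsf12 window, these coordinates being those of the stretches shown. The first of them is shown by 29 bases at its Young 1 summit and the second by 29 bases at its Young 2 summit. The last line is the 29 bases around the motif in the aged-only region at the start of Tnfsf13, chr11:69685670-69685698, whose summit is 33 bp away.
Tnfrsf1b upstream: tcagctgctccagtttttccccaaatatt
Tnfrsf12a: ccactcctagggctaaaactcagggagtg
Tnf window: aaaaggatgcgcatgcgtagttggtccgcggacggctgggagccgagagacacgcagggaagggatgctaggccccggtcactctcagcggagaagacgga
Tnfsf12 window: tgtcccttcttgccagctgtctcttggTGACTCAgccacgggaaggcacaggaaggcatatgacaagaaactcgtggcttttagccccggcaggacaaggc
Tnfsf13 start: gtggtagactcTGACTCAggcatgaatga

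Of the 4 regions present in all JunB libraries, the Tnfsf12-window region alone had the AP-1 motif TGAGTCA within 50 bp of a summit, 20 bp from the Young 2 summit. Among the 27 regions, 2 had the motif within 50 bp of a summit (7.41%, background 6.27% of all regions), both in the Tnfsf12 window. The site TGACGTCA, which Jun proteins can bind with partners of the ATF family, was near a summit in 0 of 27 regions (background 0.350%). Both motifs were sought on both strands, TGACGTCA being its own reverse complement, and neither holds the other. The Tnfsf10 promoter sequence opens with a run of repeated ctttgtc units and holds neither motif, its nearest TGAGTCA match being 125 bp from the summit.

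RefSeq promoter sequences of GRCm38.p6, which run from upstream of the start to shortly after it, were matched for 7 of the 10 genes. TGAGTCA was present in 1 of the 7, that of Fas, against 5.20% of 32851 RefSeq promoters. TGACGTCA was present in 0 of the 7 (background 1.79%). A match is a stretch of letters and no evidence of a bound site, and its absence says only that these letters are not in the window. The Fas match lay 370 bp from the aged JunB summit and inside the peak.

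Tnfrsf1b encodes TNFR2, the TNF receptor without a death domain, and had the most JunB regions of the 10 genes (7). The gene runs along the minus strand of chromosome 4, from 145213463 to 145246870, and has 1 annotated TSS with no other coding gene starting within 50 kb. For all 7 regions the nearest TSS of a coding gene was that of Tnfrsf1b, although 2 of them lay inside the body of Tnfrsf8.

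The strongest was the region at chr4:145267622-145268063, 20752 bp upstream of the Tnfrsf1b TSS. It was called in every JunB library, with a −log10 p of 56.4 in Young 1, 31.9 in Young 2, 24.3 in Young 3 and 21.5 in the aged library. The fold enrichment over local background, the ratio that the peak caller gives at the summit, was 15.5, 11.2, 11.7 and 9.75 in that order. The aged value was below all 3 young values on both scales, although −log10 p rises with depth and is not comparable between libraries. The whole aged list also had the lowest median fold enrichment, 4.93 against 5.20, 7.74 and 8.11 in Young 1, 2 and 3. By rank in its own list the peak stood in the top 3.70% of Young 1, 17.6% of Young 2, 19.4% of Young 3 and 4.93% of the aged library. The 4 summits lay within 82 bp of each other, and all 4 were inside an H3K27ac peak with a −log10 p of 7.67, one of the weaker peaks of its list at the top 79.2%. The site falls in the 3′ UTR exon of the next gene upstream, Tnfrsf8, which encodes CD30 and whose own TSS is 47084 bp away.

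Inside Tnfrsf1b, JunB peaks at the promoter began 18 bp downstream of the TSS. This region (chr4:145246226-145246852, centred in an intron) had a −log10 p of 10.5 in Young 1 and 6.32 in the aged library, with no peak in Young 2 or Young 3, and fold enrichments of 6.23 and 4.60. Both summits were within an H3K27ac peak with a −log10 p of 21.9. A second intronic region, 5672 bp downstream, was found in Young 1 (12.2), Young 2 (12.5) and the aged library (19.5) as −log10 p, and it carried no H3K27ac peak. Here the aged peak had the highest fold enrichment, 9.50 against 6.82 in Young 1 and 6.75 in Young 2, and it was among the top 6.31% of the aged list. Young 3 had no peak at this place, and the reason was not tested. The lowest −log10 p of its list was 5.22, and that of Young 2, which had the peak, was 5.33. Another intronic region 7143 bp downstream appeared in Young 1 (−log10 p 4.63) and Young 3 (7.32) under an H3K27ac peak.

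The other regions upstream of Tnfrsf1b were weaker. One at −7554 bp was found in the aged library alone (−log10 p 8.21), one at −13435 bp in Young 1 (7.46) and the aged library (5.61), and one at −25670 bp, in an intron of Tnfrsf8, in Young 3 (6.73) and the aged library (5.72). The last was the 1 region in the set that touched an H3K27ac peak while its JunB summits lay outside it. The strongest H3K27ac peak of the Tnfrsf1b window, at +12670 bp with a −log10 p of 30.8, had no JunB peak.

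**Figure D3:**
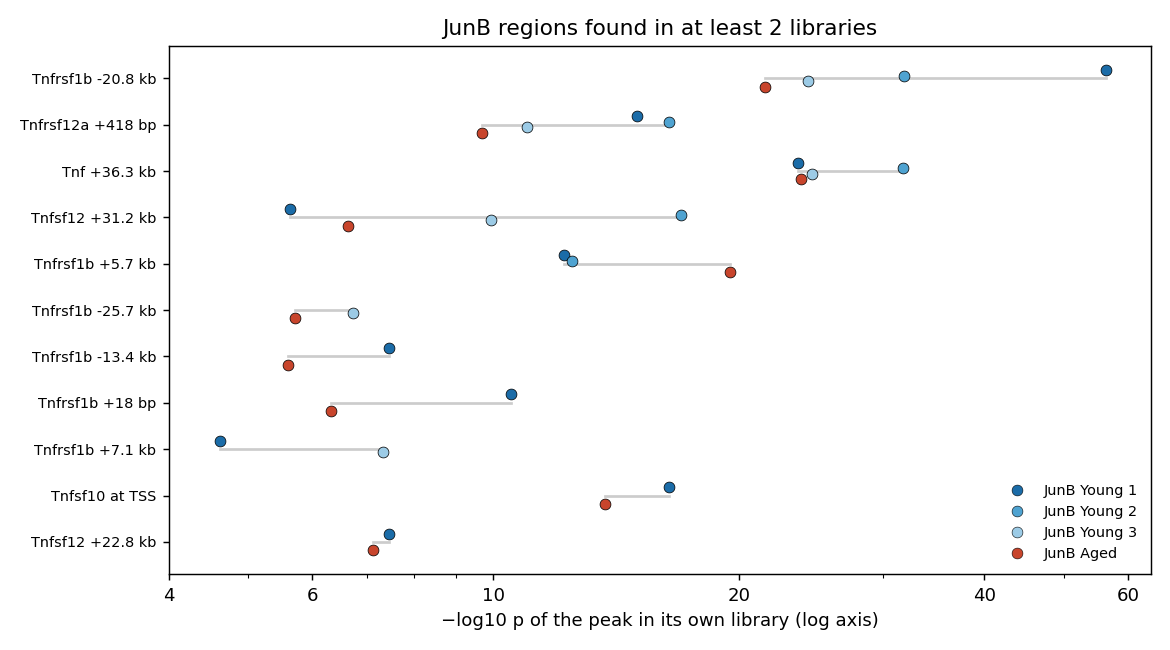
The −log10 p (log axis) of the JunB peak in each library for the 11 regions found in at least 2 JunB libraries, the grey bar spanning the lowest to the highest value. The regions 20.8 kb upstream of Tnfrsf1b and 36.3 kb from Tnf stand apart from the rest, with every value at or above 21.5.

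Tnfrsf1a encodes TNFR1, the death-domain receptor through which TNF-α activates NF-κB in most cells. JunB was called in its promoter window in the aged library alone, in a region of 625 bp (chr6:125354551-125355175) inside the gene. The −log10 p was 11.9 and the fold enrichment 6.89. The region counts as promoter only through an internal TSS, from which it lay 2196 bp upstream. It was 5189 bp downstream of the 5′ end of the gene, in an intron, and stood at −2590 bp from the nearest TSS of a coding transcript. Its whole length lay in an H3K27ac peak with a −log10 p of 17.0, and a second H3K27ac peak (21.0) spanned the TSS at the 5′ end, where no JunB library had a peak. Counted from the 5′ ends of the gene records, the number of genes with an aged promoter peak was 5 rather than 6. Farther out, an aged peak at −29862 bp (−log10 p 13.0) lay 1159 bp from the TSS of Scnn1a, which encodes a subunit of the epithelial sodium channel, and a Young 1 peak at +34471 bp (5.72) lay nearer to Plekhg6. Neither overlapped H3K27ac.

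Tnfrsf12a encodes Fn14, the TWEAK receptor, and was the 1 gene of the set with JunB at the promoter in all 4 libraries. At 2024 bp it is short enough for the whole gene to lie in its own promoter window. The shared region (chr17:23675348-23676135) covered the 3′ end of the gene, over the 3′ UTR exon, 418 bp downstream of an internal TSS and 1285 bp downstream of the nearest TSS of a coding transcript. Its −log10 p was 15.0 in Young 1, 16.4 in Young 2, 11.0 in Young 3 and 9.69 in the aged library, and its fold enrichment was 6.73, 6.95, 6.35 and 4.81. The aged value was below the young range on both scales. This was also the direction of the whole lists, whose median fold enrichment was 4.93 in the aged library against 5.20, 7.74 and 8.11 in the young ones. Summits spanned 115 bp and all lay in an H3K27ac peak with a −log10 p of 19.0.

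Closer to the 5′ end of Tnfrsf12a, the aged library had a further peak of its own (chr17:23676533-23677056) that spanned the internal TSS (−log10 p 9.64, fold enrichment 4.78). It was as strong as the aged peak at the 3′ end and did not overlap H3K27ac. A weak aged peak at −48587 bp (4.28) lay 37 bp from the TSS of Pkmyt1, which encodes a cell-cycle kinase.

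Fas encodes the CD95 death receptor. An aged peak of 914 bp (chr19:34290113-34291026) spanned its TSS (−log10 p 9.10, fold enrichment 5.61), and its summit lay in an H3K27ac peak (18.6) that continued into the gene. No young library had a peak within 3 kb, and in Young 2 and Young 3 there was none within 100 kb. Both distal regions of the Fas window, the aged one at −35564 bp (4.62) and the Young 1 one at −34631 bp (7.55), lay under 1 H3K27ac peak at the start of Acta2, the smooth muscle actin gene that starts nearby. The distances to the Acta2 TSS were 488 and 112 bp.

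Tnfrsf10b encodes DR5, the mouse receptor for TRAIL. It had 1 JunB region, a Young 1 peak at −8995 bp with a −log10 p of 7.15, and no aged peak within 50 kb. No H3K27ac peak lay within 3 kb of its TSS, the nearest being at −33949 bp. Tnfrsf11b encodes osteoprotegerin, the secreted decoy receptor for RANKL, and no peak of any of the 5 libraries lay within 50 kb of it. At 100 kb a single aged JunB peak came in, at 51142 bp.

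Of the ligands, Tnfsf10 (TRAIL) had the strongest JunB promoter peaks. In the region chr3:27316738-27317031, the Young 1 peak (−log10 p 16.4) ended 6 bp before the TSS and the aged peak (13.7) spanned it. Fold enrichments were 8.26 and 7.73, and the summits were 33 bp apart within an H3K27ac peak of −log10 p 15.7. Young 2 had no JunB peak within 100 kb of the gene. The aged peak was the 1 promoter peak of the 10 genes that remained among the 2000 strongest of any JunB list. On either side of the gene, peaks of single libraries lay at −37498 bp (aged, 4.28) and +28343 bp (Young 1, 8.30), and neither overlapped H3K27ac. For TRAIL and its receptor DR5, JunB peaks were thus listed at the TSS of the ligand gene and only distal to the receptor gene, a difference that was not tested.

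Tnf encodes TNF-α and lies in the gene-dense major histocompatibility complex, with 9 other coding genes starting within 50 kb. Its only promoter peak was in the aged library, 1378 bp downstream of the TSS in a coding exon (chr17:35200309-35200626), with −log10 p 5.93 and fold enrichment 4.49, at the top 67.6% of its list. No H3K27ac peak lay within 3 kb of Tnf, the nearest being at −7870 bp. The strongest region of the window, at +36313 bp, was found in every JunB library with a −log10 p of 23.6 in Young 1, 31.8 in Young 2, 24.6 in Young 3 and 23.8 in the aged library. The aged value lay inside the young range, as did its fold enrichment of 10.4 against 10.3, 13.2 and 12.5. The 4 summits were within 37 bp of each other inside an H3K27ac peak (13.3). That region lies 132 bp from the TSS of Prrc2a, an RNA-binding protein gene, and so its link to Tnf is one of distance only. An aged peak at −34084 bp (4.07) lay at the start of Atp6v1g2 in a similar way.

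Tnfsf12 encodes TWEAK, the ligand of Fn14. No JunB library had a peak within 3 kb of its TSSs, whereas H3K27ac had 2, with a −log10 p of 12.7 and 11.8. Of the pair Fn14 and TWEAK, the receptor gene had JunB peaks in all 4 libraries within its promoter window and the ligand gene in none, which again was not tested. The nearest JunB region was aged only, at +9827 bp (7.84), and spanned the TSS of Tnfsf13, the gene of the B-cell cytokine APRIL, in an H3K27ac peak of 22.8. A region at +31194 bp was in all 4 libraries, with a −log10 p of 5.63 in Young 1, 17.0 in Young 2, 9.93 in Young 3 and 6.63 in the aged library. The aged value was within the young range, and no H3K27ac peak overlapped it, the 1 case among the 4 regions present in every library. It lay 1378 bp from the TSS of Mpdu1, a glycosylation gene, and within 3 kb of a TSS of Cd68, a macrophage gene that is among the blood markers above. The remaining regions were at Eif4a1 (+22830 bp, Young 1 at 7.46 and aged at 7.12, with H3K27ac) and Mpdu1 (+32836 bp, aged at 9.98, with H3K27ac).

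Tnfsf11 encodes RANKL, the osteoclast differentiation factor. No JunB library had a peak within 100 kb of it, and its window held 1 H3K27ac peak at −22621 bp (−log10 p 7.74). RANKL and its decoy receptor osteoprotegerin were thus the genes of the set without JunB in their windows, a feature of 35.4% of all genes as given above.

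**Figure D4:**
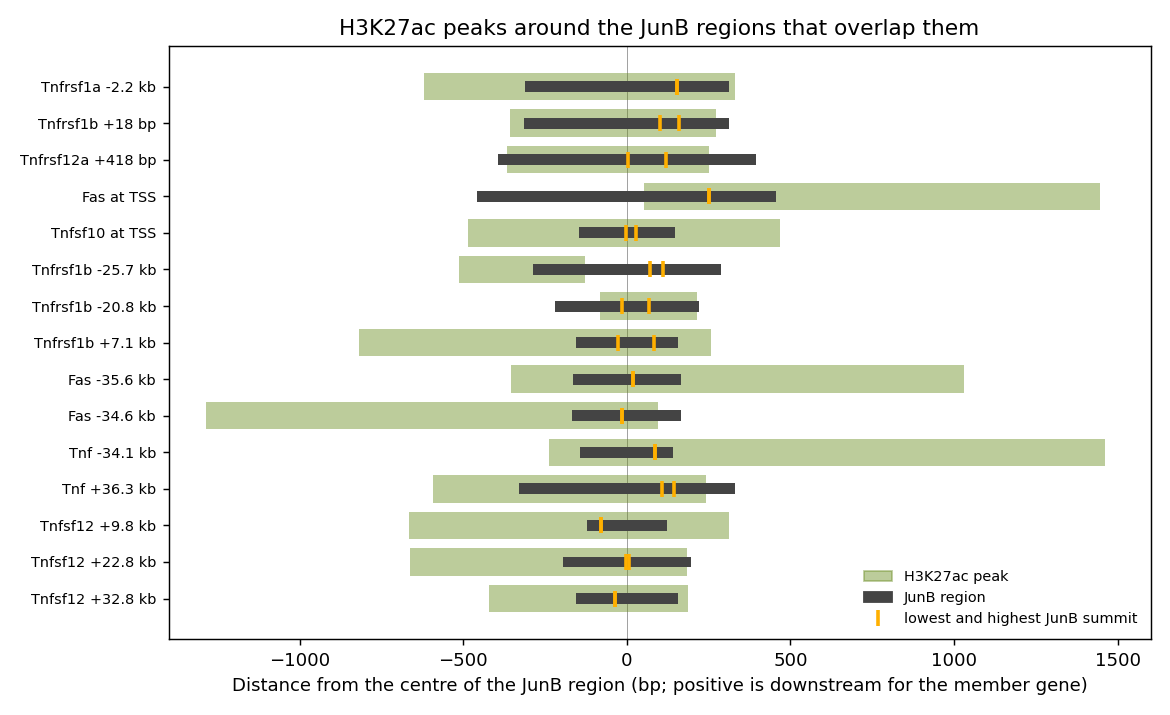
The H3K27ac peak (green) around each of the 15 JunB regions that overlap one (dark bar), drawn in bp from the centre of the JunB region with positive values downstream for the TNF gene. The orange marks, the lowest and highest JunB summit, lie inside the green peak in 14 of the 15 regions, the exception being the region 25.7 kb upstream of Tnfrsf1b. The share of all JunB regions with H3K27ac was not taken for this count.

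The 12 regions found in the aged library alone had a −log10 p of 4.07 to 13.0 (median 8.03). They included the promoter regions of Tnfrsf1a, Fas and Tnf, the 5′ region of Tnfrsf12a, and the regions that lay at the starts of neighbouring genes, such as Tnfsf13, Mpdu1, Pkmyt1 and Atp6v1g2. Their presence in no young list was not tested, since a peak just below the threshold of a list is not recorded. With a common lowest −log10 p of 5.33 in all 4 lists, the promoter counts stayed at 6 genes in the aged library and 3 in the young ones. At this threshold the share of all genes was not taken, so the counts cannot be set against a background.

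The rest of the family and its signalling genes were taken as lists. Of 22 other receptor genes, 6 had an aged promoter peak (background 23.9%) and 1 a young one in any library (background 12.8%), and none had one in all 4 libraries, so the aged count was near the background. The 3 strongest that had none in a young library were Tnfrsf23, a decoy receptor for TRAIL (aged −log10 p 7.25), Cd27, a T-cell co-stimulatory receptor (7.13), and Relt (6.21). Of 14 other ligand genes, 3 had an aged promoter peak and 0 a young one against the same backgrounds, namely Tnfsf13 (7.84), Eda, the ectodysplasin gene (6.21), and Tnfsf8, the CD30 ligand gene (4.28). The gene of the Fas ligand, Fasl, had no promoter peak of any library.

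Among 20 genes of TNF receptor signalling, 7 had an aged promoter peak (background 23.9%), 7 had a young one in any library (background 12.8%), and 17 had promoter H3K27ac (background 49.8%). Traf2, the adaptor that TNFR1 and TNFR2 recruit, and Cflar, the caspase-8 inhibitor c-FLIP, had promoter JunB peaks in all 4 libraries (2 of 20, background 4.40%). At Traf2 the −log10 p was 91.7 in Young 1, 94.8 in Young 2, 64.4 in Young 3 and 40.1 in the aged library, in each library above every promoter peak of the 10 receptor and ligand genes. At Cflar it was 25.7, 35.4, 20.1 and 18.5 in the same order. In the aged library only, Map3k14 (NIK, the kinase of non-canonical NF-κB signalling, 12.0), Cyld (a deubiquitinase, 7.58) and Ikbkg (NEMO, 5.93) had promoter peaks (3 of 20, background 13.1%). Traf3, Birc3 and Map3k7 had one in a young library and not in the aged one (3 of 20, background 1.95%). The aged-only share was thus near the background and the reverse share above it, and neither was tested.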

How the data were processed

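JunB and H3K27ac CUT&RUN-seq peak lists of freshly isolated mouse MuSCs were used. Reads were aligned by the authors to mm10 with Bowtie2, kept if non-redundant, and peaks were called with MACS2 in each library. Software versions and a control library are not given in the sources used here. The deposited lists give for each peak the fold enrichment, a ratio to that library's own local background, and the −log10 p and −log10 q, by which the authors' peak caller ranked it. These values are relative to their own library and were used as descriptions, for ranks and for filters. No read counts are held, so depth is unknown and limits a peak's absence.

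Here, peaks of all 5 lists within 50 kb of a TSS of the 10 genes (GENCODE M21) were collected, and overlapping or touching JunB peaks (chromosomes 1 to 19, X and Y) were merged. An overlap was at least 1 bp. Motifs were sought on both strands within 50 bp of summits. Shares were set beside 21951 protein-coding genes or all 18879 regions. Coordinates are 1-based, and sequences were read from GRCm38.p6. Overlap, distances and motif scans were tested on simulated data. Python 3.11.15 was used with numpy 2.4.6, pysam 0.24.0 and matplotlib 3.10.9.

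The members and lists were chosen with earlier results of these data known. Named were all 10 genes with each promoter peak; distal regions found in all 4 JunB libraries, those with H3K27ac and at least 2 JunB libraries, and the strongest aged one per gene; and from the pathway lists the genes with promoter peaks in all 4 libraries and the 3 strongest aged ones without a young peak. Other regions and genes in the text were added after their values were seen. Alternatives covered the promoter and outer windows, the TSS set, thresholds, the 2000 strongest peaks, the young rule, each young library left out, H3K27ac overlap and the motif flank.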

Additional observations from a re-analysis of the deposited data

How the results depend on the processing

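The main counts were 6 genes with an aged and 3 with a young JunB promoter peak, 6 with promoter H3K27ac, 27 JunB regions in the windows, 4 of them in all 4 JunB libraries, 15 with H3K27ac and 2 with the AP-1 motif at a summit, and 22 aged peaks. With a 25 kb window these became 15 regions, 2 in all libraries, 9 with H3K27ac and 13 aged peaks, and with 100 kb 42 regions and 35 aged peaks. Among the 2000 strongest peaks of each list, 1 gene kept an aged and 0 a young promoter peak, with 4 regions, 2 in all libraries, 3 with H3K27ac and 4 aged peaks. Counting only peaks whose nearest coding TSS was that of a TNF gene left 15 regions, 2 in all libraries, 8 with H3K27ac and 13 aged peaks. The motif was in 4 regions within 100 bp of a summit and in 12 anywhere in a peak. Shares over all genes or all regions were not taken under these alternatives, so none of their counts can be read against a background. Leaving out each young library in turn gave 1 to 3 genes with a young promoter peak, 23 to 27 regions, 4 to 5 in all remaining libraries and 14 to 15 with H3K27ac, the lowest gene count arising without Young 1. Requiring 2 young libraries also gave 1 gene. The other 59 of 79 recomputed values stayed within 1.5 times the main count, and the causes of the changes were not tested. Within that limit, a 1 kb promoter window lowered the aged promoter count from 6 to 4 genes and left the young count at 3. No paired analysis was possible because no result came from a test and the aged group held 1 library. The unknown depth and the unequal thresholds of the lists limit every statement that a peak was absent.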

Other observations

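H3K27ac was spread unevenly over the windows of the 10 genes. The 45 peaks were 9 at Tnf, 7 at Tnfrsf1b, 7 at Fas, 6 at Tnfsf10, 6 at Tnfsf12, 4 at Tnfrsf1a, 3 at Tnfrsf12a, 2 at Tnfrsf10b, 1 at Tnfsf11 and 0 at Tnfrsf11b. The windows of Tnf and Tnfsf12 each hold the starts of 9 other coding genes, whereas those of Tnfrsf1b and Tnfsf10 hold none. At Fas, the H3K27ac peaks at −27395, −24331, −11965 and −5641 bp, with a −log10 p of 12.3, 14.2, 7.48 and 8.63, lay between the Acta2 start and the Fas TSS, and none of these 4 overlapped a JunB peak. The window of Tnfsf10 held a similar row upstream of its TSS, at −33124 (−log10 p 12.7), −27676 (8.41) and −5689 bp (13.2), again without JunB.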
